A study of Mus musculus with 18 samples.

Results

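The AP-1 factor genes Jun, Junb, Jund, Fos, Fosb, Fosl1, Fosl2, Batf and Batf3 are 9 of 21938 protein-coding genes of the mouse annotation, and were examined here for the DNA methylation of their surroundings in cells carrying a mutant Dnmt3a allele. Members were the regions that overlapped a gene body or the 10 kb on either side of it. This gave 110 of 411770 listed regions in CD11b+ cells and 137 of 553467 in CD4+ cells. The genes had been singled out because earlier results of the same data showed gains at their promoters and losses in their flanks, so the values below are a description of that pattern and not a test of it.

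Whole-genome bisulfite sequencing was performed on CD11b+ and CD4+ cells, isolated from spleen with magnetic beads, of 4 WT (Dnmt3a+/+) and 4 Dnmt3aR878H/+ mice per cell type. The study describes the line as C57BL/6 and its mice, of both sexes, as 8-10 weeks old in general, without an age for these samples. CD11b marks monocytes, macrophages, neutrophils and some other leukocytes, and CD4 marks helper and regulatory T cells. The mutant mice were heterozygous for the R878H allele, which a Cre recombinase under the Vav1 promoter switches on in blood-forming cells and their progeny, and the control mice carried either the Cre without the floxed allele or the floxed allele without the Cre. The labels held 18 entries for the 4 groups, because CD11b+ cells of mutant mice had 6 entries for 4 mice. For each region the authors deposited the mean methylation level of each genotype in percent, but gave neither values per mouse nor read depths. A group mean therefore has no error here, the depth behind it is unknown, and no difference was tested across mice. Neither table names its genotypes. The first mean was taken to be that of WT, since the study shows the WT genome as the more methylated, and all directions below depend on this.

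AP-1 is a family of transcription factors that bind DNA as pairs of proteins joined by leucine zippers. Jun proteins can pair with each other or with Fos proteins, whereas Fos proteins need a Jun partner and Batf proteins pair with Jun proteins without a transactivation domain of their own. In myeloid cells and T cells Fos, Fosb, Jun and Junb are known as immediate early genes, induced quickly by growth factors, cytokines and antigen receptor signals, and the start sites of many AP-1 factor genes lie in CpG islands, stretches rich in CpG that normally stay unmethylated. DNMT3A is an enzyme that adds methyl groups to cytosines of CpGs that lack them.

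Of the 110 regions in CD11b+ cells, 91 had a lower mean in Dnmt3aR878H/+ cells than in WT cells and 19 a higher one. The lower ones were 82.7%, against 93.4% of all listed regions, and the median difference was -7.91 percentage points, against -6.55. Of the 137 regions in CD4+ cells, 133 were lower and 4 higher. This was 97.1%, against 95.5% of all listed regions, with a median of -10.3 against -6.85. Losses were listed in the windows of all 9 genes in both cell types. In CD11b+ cells, CpG-dense stretches within Jun, Junb, Fos and Fosl2 that were almost unmethylated in WT cells had gained methylation, up to 44.1% at Junb. None of these stretches was overlapped by a region in the CD4+ table, which says nothing of the level there because a region that is not listed has no value.

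A region was counted as past the threshold when the group means differed by more than 20 percentage points over more than 10 CpG cytosines. The study's own criteria also ask for a metilene q-value below 0.05, with which 3 of the 9 losses below in CD11b+ cells were left, at Jund, Fos and Fosl2, 1 of the 2 gains, at Junb, and 3 of the 18 losses in CD4+ cells, at Junb, Fos and Batf. In CD11b+ cells 9 of the 110 regions were lower by this measure, and 3.24% of all listed regions were. A gain of the same size was held by 2 of the 110, 1 at Jun and 1 at Junb, and by 0.125% of all listed regions. In CD4+ cells 18 of 137 regions were lower, beside 3.08% of all listed regions, and 0 were higher, beside 0.00343%. Counted by gene, 6 of the 9 had such a loss in CD11b+ cells, namely Junb, Jund, Fos, Fosl1, Fosl2 and Batf3, beside 33.7% of the protein-coding genes with a listed region in their window. In CD4+ cells 6 had one, namely Junb, Jund, Fos, Fosl2, Batf and Batf3, beside 37.8% of genes. Genes with such a gain were 2 of 9 in CD11b+ cells, beside 3.47% of genes, and 0 of 9 in CD4+ cells, beside 0.0738%. Nothing is read from these shares, since the same contrast had picked the genes.

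**Figure D1:**
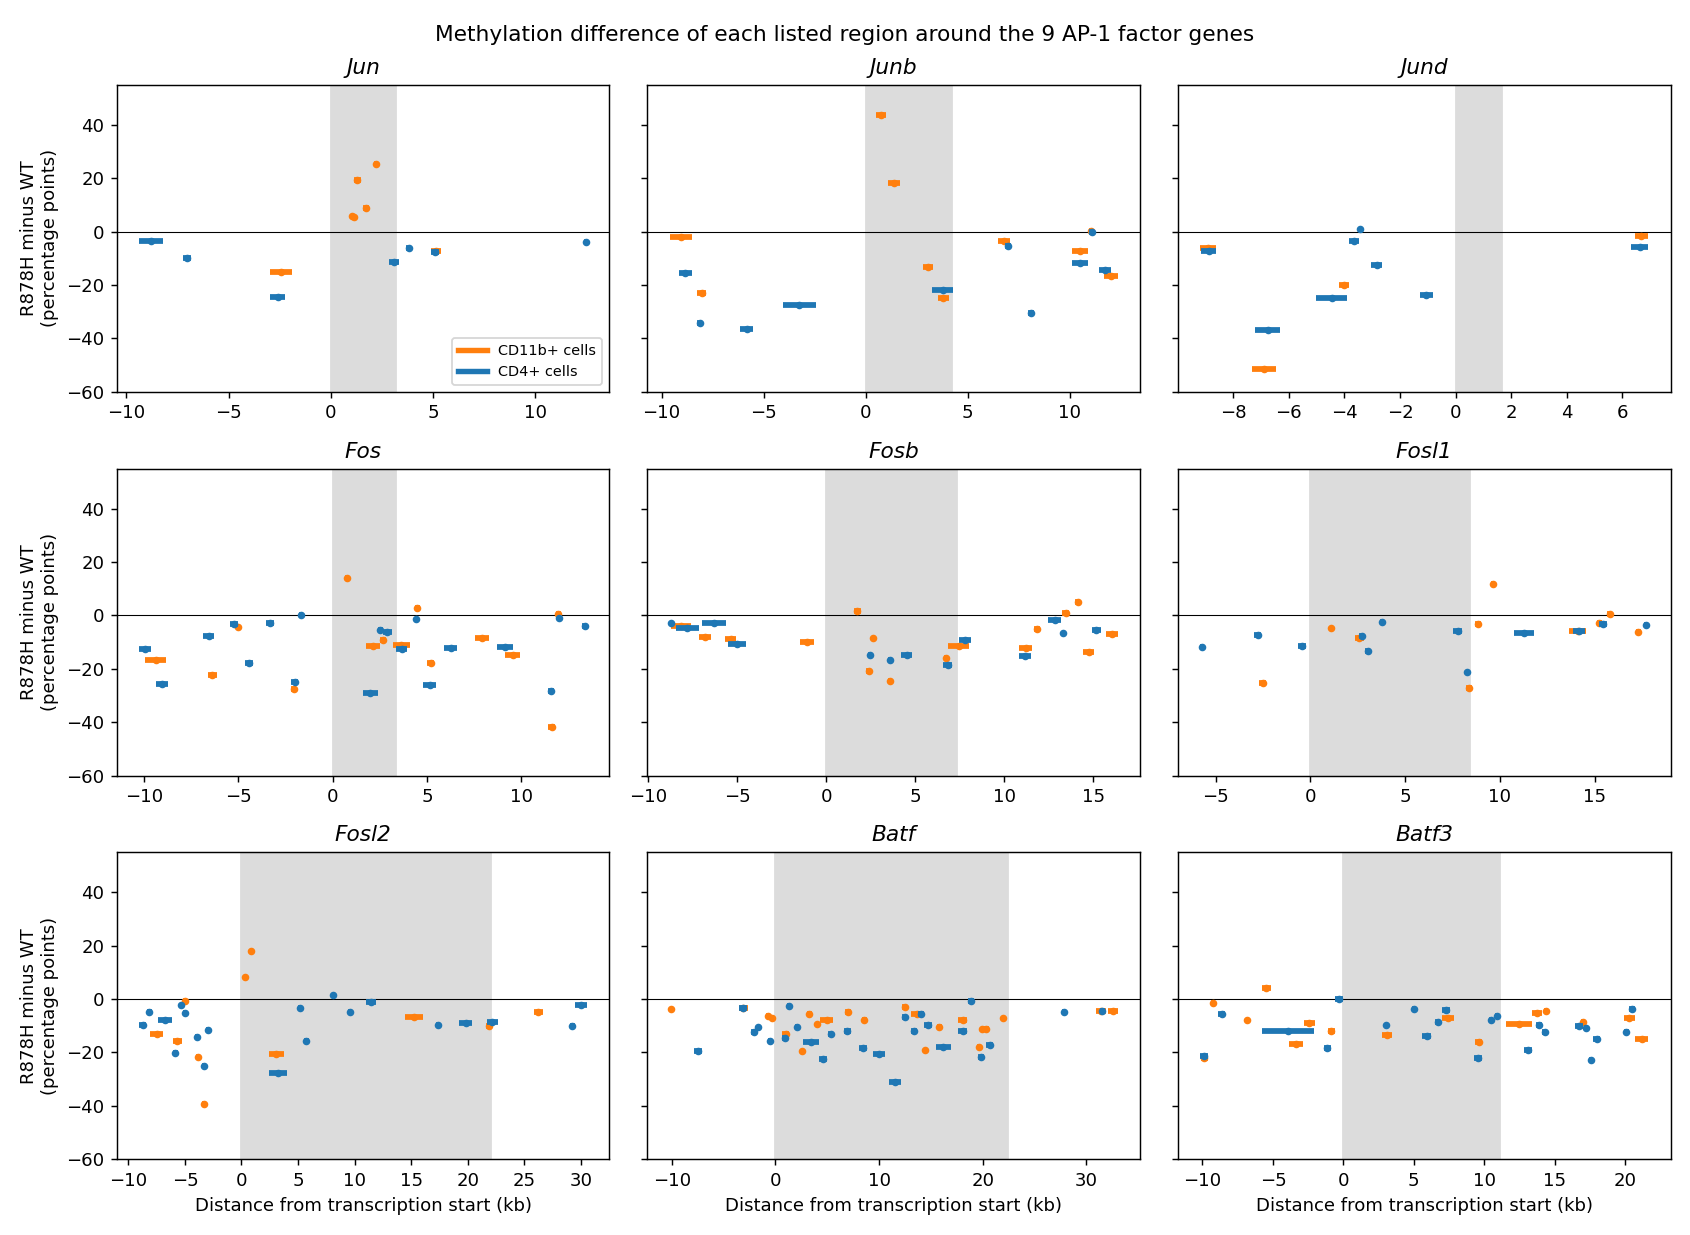
Each panel shows 1 gene; the horizontal axis is the distance in kb from the transcription start in the direction of transcription, the vertical axis the difference of group means (R878H minus WT, percentage points), each bar a listed region with a dot at its middle, and the grey band the gene body. Of the 19 orange regions (CD11b+ cells) above the line, 10 sit inside Jun, Junb, Fos and Fosl2 and have gained over 5 points, up to 43.9 at Junb, while blue regions (CD4+ cells) lie below it or within 1.43 points above it.

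At each of Junb, Jun and Fos, the stretch with the largest gain in CD11b+ cells outside untranslated parts is shown first, with its CpGs in capitals, to make visible how densely these sites are packed. Each is printed 5′ to 3′ on the strand of the gene from the mm10 sequence, and of a region over 300 bases the 300 with the most CpGs are shown.
Junb, coding exon, chr8:84977877-84978176, minus strand: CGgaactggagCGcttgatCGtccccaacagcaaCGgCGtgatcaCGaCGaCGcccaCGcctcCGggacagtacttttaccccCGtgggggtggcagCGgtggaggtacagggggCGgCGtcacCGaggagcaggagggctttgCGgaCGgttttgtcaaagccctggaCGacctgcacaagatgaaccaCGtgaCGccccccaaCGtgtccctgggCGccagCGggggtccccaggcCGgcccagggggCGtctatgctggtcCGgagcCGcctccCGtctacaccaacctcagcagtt
Jun, coding exon, chr4:95050761-95051060, minus strand: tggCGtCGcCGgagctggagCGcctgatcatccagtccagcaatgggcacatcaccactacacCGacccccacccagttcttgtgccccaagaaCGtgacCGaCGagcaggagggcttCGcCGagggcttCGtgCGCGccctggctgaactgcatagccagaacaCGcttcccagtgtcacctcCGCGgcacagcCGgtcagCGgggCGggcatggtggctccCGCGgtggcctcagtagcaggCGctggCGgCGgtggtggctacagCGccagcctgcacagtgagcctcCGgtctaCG
Fos, intron, chr12:85474528-85474751, plus strand: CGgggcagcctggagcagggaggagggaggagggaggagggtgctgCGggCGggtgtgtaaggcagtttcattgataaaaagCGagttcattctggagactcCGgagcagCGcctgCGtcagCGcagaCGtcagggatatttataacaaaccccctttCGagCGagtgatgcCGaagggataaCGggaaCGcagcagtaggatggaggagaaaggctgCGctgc
The Junb stretch held 28 CpGs, the Jun stretch 27 and the Fos stretch 15. By contrast, the flank stretches with the deepest losses were sparser in CpGs at Fosl2 and Fos, with 9 and 10 CpGs in 300 bases, and intermediate at Jund, with 18.
Fosl2, upstream, chr5:32132323-32132622, plus strand: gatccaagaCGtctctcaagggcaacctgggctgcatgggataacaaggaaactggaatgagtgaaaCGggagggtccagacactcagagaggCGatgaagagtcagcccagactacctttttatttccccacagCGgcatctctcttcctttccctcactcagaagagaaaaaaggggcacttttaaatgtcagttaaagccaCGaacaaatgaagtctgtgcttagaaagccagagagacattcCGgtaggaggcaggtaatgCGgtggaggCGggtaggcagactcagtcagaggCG
Fos, downstream, chr12:85485322-85485621, plus strand: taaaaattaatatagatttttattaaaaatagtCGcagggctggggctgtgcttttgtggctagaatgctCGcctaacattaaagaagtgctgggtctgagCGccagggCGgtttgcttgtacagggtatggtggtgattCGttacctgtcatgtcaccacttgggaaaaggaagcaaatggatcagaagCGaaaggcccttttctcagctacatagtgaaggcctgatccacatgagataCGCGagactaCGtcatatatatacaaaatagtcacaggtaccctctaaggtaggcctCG
Jund, upstream, chr8:70691935-70692234, plus strand: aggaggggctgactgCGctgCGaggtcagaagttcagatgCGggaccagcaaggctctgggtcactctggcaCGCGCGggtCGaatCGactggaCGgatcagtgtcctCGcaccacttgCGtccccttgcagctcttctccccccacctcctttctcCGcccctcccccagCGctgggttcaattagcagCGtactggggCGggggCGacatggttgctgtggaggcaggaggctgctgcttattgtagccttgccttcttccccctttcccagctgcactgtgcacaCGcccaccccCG
The observed-to-expected CpG ratio, which corrects the number of CpGs for base composition, had a median of 0.93 over the 11 CD11b+ regions that were under 10% in WT cells and gained more than 5 points, with a range of 0.64 to 1.26. It was 0.4 over the 14 regions of CD11b+ cells that fell by more than 20 points at any number of cytosines. Median GC content was 66.7% in the former and 49.0% in the latter. The other 6 regions under 10% in WT cells had medians of 0.57 and 59.1%, and the 79 remaining regions 0.3 and 49.3%. Gains thus lay in island-like sequence, whereas the losses were close in these measures to the 79 remaining regions. The WT level bounded which regions could enter either set, so the contrast is not a test of sequence.

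Junb encodes a Jun protein that restrains proliferation of myeloid cells and takes part in helper T cell differentiation. The gene is on chr8:84974484-84978718 on the minus strand, with a single coding exon. In CD11b+ cells, the region from 520 to 1015 bp downstream of its start (chr8:84977703-84978198, all coding) had a mean of 0.228% in WT cells and 44.1% in Dnmt3aR878H/+ cells over 45 cytosines. This was the largest gain among all regions of the 9 genes. The neighbouring region, from 1108 to 1665 bp (chr8:84977053-84977610), which takes in the end of the coding part and untranslated sequence, went from 0.838% to 19.2%. The 3′ end of the gene model, which is a non-coding transcript and is shared with Prdx2, moved the other way. It went from 66.1% to 41.2% in CD11b+ cells over 10 cytosines and from 60.2% to 38.4% in CD4+ cells over 21. In the flank 7813 to 8243 bp upstream the means of CD11b+ cells were 56.2% in WT and 33.2% in mutant mice, and the part of it listed in CD4+ cells had 70.8% and 36.7%. CD4+ cells had further losses between 2430 and 4053 bp upstream, from 43.8% to 16.3% over 29 cytosines, and between 5520 and 6134 bp upstream, from 59.6% to 23.0% over 10 cytosines. A short region 7971 to 8228 bp downstream of the start, by the promoters of Rnaseh2a and Prdx2, went from 49.5% to 19.1% in CD4+ cells, also over 10. Junb thus held the largest gain beside flank losses in both cell types.

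Jun encodes c-Jun, the founding member of the family and a target of the JNK kinases. It has 1 exon, at chr4:95049034-95052222 on the minus strand. All 5 regions listed inside it in CD11b+ cells had gained methylation. From the start side, the first, at 971 to 1084 bp, went from 0.625% to 6.53%, and the next, at 1085 to 1142 bp, from 1.77% to 7.25%. The coding region at 1143 to 1461 bp, part of which is printed above, went from 0.9% to 20.4%, and the one at 1579 to 1849 bp from 0.5% to 9.55%. The 3′ untranslated region at 2101 to 2273 bp (chr4:95049949-95050121) had 5.09% in WT cells and 30.3% in Dnmt3aR878H/+ cells over 16 cytosines, and this region alone was past the threshold. The other 4 rested on 10 to 13 cytosines each. In CD4+ cells the region listed within Jun lay at the very 3′ end and went from 90.4% to 79.1%. Upstream of Jun, between 1922 and 2958 bp, CD11b+ cells went from 39.1% to 23.9%, and an overlapping region in CD4+ cells from 63.5% to 38.9%, each over 10 cytosines. In CD11b+ cells Jun thus had gains between 971 and 2273 bp of its exon and a loss upstream.

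Jund encodes the Jun protein that is present in resting cells, in contrast to the induced Jun and Junb. It is a single-exon gene at chr8:70698949-70700616 on the plus strand. No region inside it was listed in either cell type, and its deepest change lay upstream. Between 6449 and 7308 bp before the start, CD11b+ cells had 70.6% in WT and 19.2% in mutant mice over 23 cytosines, the largest difference of all regions in these windows. The overlapping region of CD4+ cells had 70.8% and 33.8% over 16 cytosines. The WT levels were alike in the cell types and the mutant level was lower in CD11b+ cells, though the boundaries of the regions differed. Nearer to the gene, 3823 to 4202 bp upstream, CD11b+ cells went from 76.0% to 56.1%, and a longer region in CD4+ cells, 3902 to 5003 bp upstream, from 80.8% to 56.0%. CD4+ cells also had a loss 807 to 1291 bp before the start, from 67.7% to 44.0% over 19 cytosines. This was the single promoter region past the threshold in CD4+ cells. RefSeq places the start of Jund 1210 bp away from the GENCODE start, so the region lies across the RefSeq start.

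Fos encodes c-Fos, the classic immediate early gene product. It has 4 exons at chr12:85473890-85477273 on the plus strand. In CD11b+ cells the intronic region 638 to 861 bp after the start, printed above, went from 0.602% to 14.7% over 22 cytosines. Further into the gene, a region across coding sequence lost methylation in both cell types, from 90.4% to 79.0% in CD11b+ cells (1771 to 2491 bp) and from 80.5% to 51.5% in CD4+ cells (1603 to 2404 bp). Around the gene, the deepest loss lay 11415 to 11810 bp downstream of the start (chr12:85485305-85485700), where CD11b+ cells went from 74.1% to 32.4% over 22 cytosines. The same place went from 79.0% to 50.8% in CD4+ cells over 21 cytosines. The CpG-richer region next to it was almost unmethylated in both genotypes, at 1.6% in WT and 2.25% in mutant CD11b+ cells and, in the CD4+ table, at 1.58% and 0.625%. Upstream of Fos, 1958 to 2197 bp before the start, CD11b+ cells had 45.5% and 17.8%, and CD4+ cells 47.5% and 22.4% in a region that covers nearly all of it. The former rested on 10 cytosines and so did not pass the threshold, and the latter on 17. Flank losses past the threshold were further at 6144 to 6623 bp upstream in CD11b+ cells, from 66.3% to 43.9%, and in CD4+ cells at 8753 to 9348 bp upstream, from 65.6% to 39.9%, and 4791 to 5486 bp downstream of the start, from 74.0% to 47.8%.

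Fosl2 encodes Fra-2, a Fos protein without the strong transactivation domain of c-Fos. The gene spans chr5:32135801-32157842 on the plus strand. Of its regions in CD11b+ cells, 2 lay in the first exon, upstream of the coding part, and both were higher in Dnmt3aR878H/+ cells. The one at 278 to 349 bp after the GENCODE start went from 0.625% to 8.78% over 10 cytosines and the one at 713 to 898 bp from 0.367% to 18.2% over 15. The RefSeq start lies 671 bp from the GENCODE start, so the first of them is upstream of the gene by that annotation. The printed upstream region, 3179 to 3526 bp before the start, was listed with the same boundaries in both tables. It went from 64.5% to 25.0% in CD11b+ cells and from 42.6% to 17.7% in CD4+ cells. Beside it, 3680 to 4038 bp upstream, CD11b+ cells went from 69.2% to 47.5%, and the region of CD4+ cells at about the same place from 78.4% to 64.0%. The first intron had a loss of 20.4 points in CD11b+ cells (50.7% to 30.2%) and of 27.6 points in CD4+ cells (78.1% to 50.5%). In CD11b+ cells Fosl2 therefore showed gains at its first exon between an upstream and an intronic loss.

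Fosb, which encodes FosB and the truncated ΔFosB, and Fosl1, which encodes Fra-1, had smaller changes near their starts. In CD11b+ cells Fosb had 1 promoter region, 694 to 1483 bp upstream, which went from 66.8% to 56.9%, and an unmethylated intron region that went from 0.0% to 1.5%. Its largest losses in CD11b+ cells were in the gene body, from 66.4% to 41.8% across coding sequence and from 68.8% to 48.0% in an intron, both over 10 cytosines. The matching regions of CD4+ cells went from 70.5% to 53.9% and from 79.0% to 64.3%. No region at Fosb was past the threshold in either cell type, and the differences ranged from -24.6 to 4.98 points in CD11b+ cells and from -18.5 to -1.64 in CD4+ cells. At Fosl1 the promoter region of CD11b+ cells, in the first part of the gene, went from 6.65% to 1.75%, and that of CD4+ cells, upstream of the start, from 85.4% to 73.9%. A region 2329 to 2713 bp upstream went from 56.7% to 31.5% in CD11b+ cells over 15 cytosines. The 3′ end of Fosl1, shared with Ccdc85b, went from 81.6% to 54.5% in CD11b+ cells and from 88.0% to 66.8% in CD4+ cells. The only gain over 5 points in the Fosl1 window, from 1.10% to 13.0% in CD11b+ cells, lay at the promoter of Ccdc85b and not at Fosl1.

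Batf and Batf3 encode short partners of Jun proteins that act with the interferon regulatory factors IRF4 and IRF8, Batf in T and B cells and Batf3 in dendritic cells. Neither gene had a gain over 4 points in any region. Batf, at chr12:85686669-85709087 on the plus strand, had the most regions, with 22 in CD11b+ and 26 in CD4+ cells, and all of them were lower in Dnmt3aR878H/+ cells. Around its start the regions were not unmethylated in WT cells. In CD11b+ cells the 3 promoter regions went from 82.6% to 76.2%, from 20.3% to 13.3% and from 34.2% to 21.02%. In CD4+ cells the 2 promoter regions went from 48.3% to 32.5% and from 30.1% to 15.7%. The introns of Batf had 4 regions past the threshold in CD4+ cells. The deepest, at 10965 to 12080 bp after the start, went from 61.2% to 30.01% over 27 cytosines, and the other 3 fell by between 20.5 and 22.5 points. In CD11b+ cells no region of Batf passed, and the differences ran from -19.6 to -2.79 points. Over the whole window the median difference of Batf was -7.43 points in the myeloid cells and -12.1 in the T cells. At Batf3, at chr1:191097847-191108945, the CD4+ promoter region was at 5.39% in WT and 5.5% in mutant mice. Its loss 9644 bp upstream was listed in both tables, from 48.9% to 26.9% in CD11b+ cells and from 64.9% to 43.6% in CD4+ cells. CD4+ cells also had a loss in an intron of Batf3, from 73.3% to 51.3% over 14 cytosines, where CD11b+ cells went from 65.5% to 49.4% over 10.

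Grouped by position, the regions of the 9 genes were set beside those of all genes, first in CD11b+ cells. The 10 promoter regions, those within 1 kb of a transcription start, had a median difference of 0.5 points, 5 being lower and 5 higher, whereas promoter regions of all protein-coding genes had a median of -7.94 and 85.2% of them were lower. The 39 gene body regions had a median of -9.38 (all genes -6.48) and the 61 flank regions of -7.06 (all genes -7.17). The WT medians of the promoter regions were unlike, at 3.64% for the 9 genes and 63.75% for all genes. A region near 0% cannot fall by several points, and the same contrast had picked the genes. Nothing is therefore read from the promoter medians. That of the 9 genes also depended on the width used, being -6.43 within 500 bp and -1.7 within 2 kb. In CD4+ cells the medians were -14.4 over 5 promoter regions (all genes -8.87), -11.6 over 50 gene body regions (all genes -6.65) and -9.86 over 82 flank regions (all genes -7.38).

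**Figure D2:**
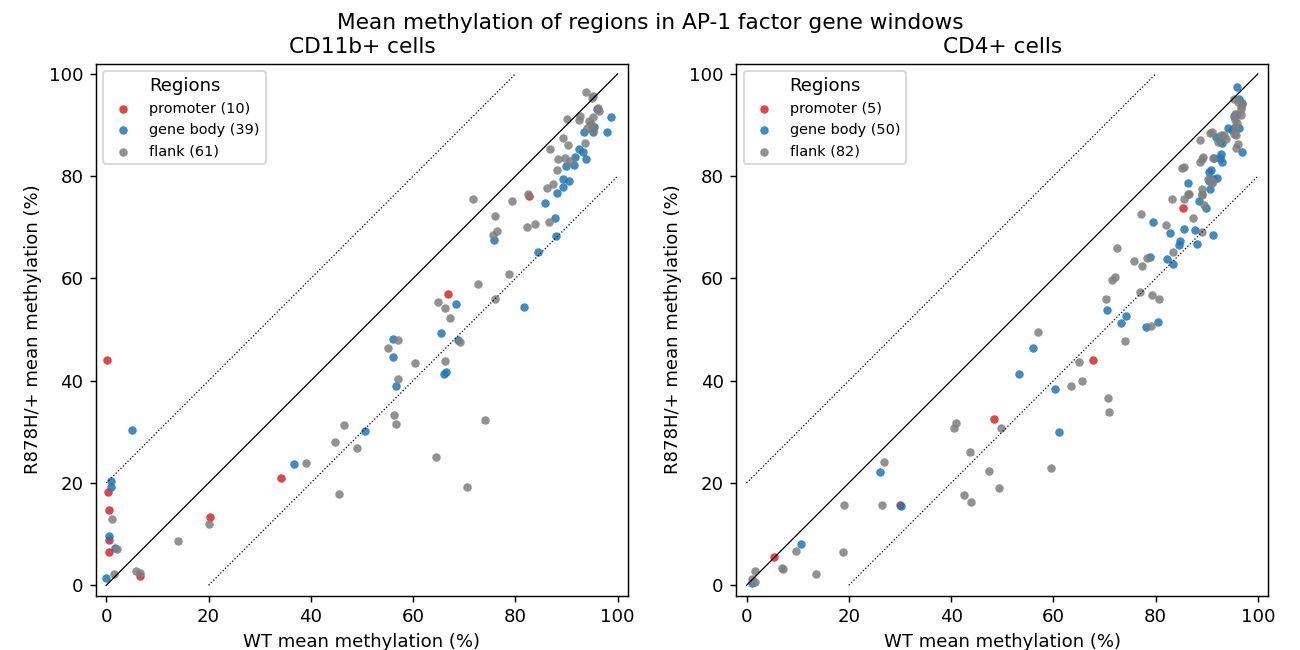
Each point is a listed region, placed by its WT mean (horizontal, %) and its R878H/+ mean (vertical, %), coloured by class with the number of regions in brackets; the solid line marks equal means and the dotted lines a difference of 20 points. In CD11b+ cells (left) a column of promoter and gene body regions rises from a WT mean near 0%, up to 44.1%, whereas in CD4+ cells (right) the points lie below the line or within 1.43 points above it.

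The regions of low methylation in WT cells, at which a sizeable loss cannot be seen, were then taken alone. In CD11b+ cells, 17 regions were under 10% in WT cells. Of these, 14 were higher in Dnmt3aR878H/+ cells, 11 by more than 5 points. Over all listed regions of CD11b+ cells under 10% in WT, 8415 in number, 23.8% were higher by more than 5 points. Taking promoter and gene body regions alone, 10 of 12 had such a gain at the AP-1 factor genes, 5 at Jun, 2 at Junb, 1 at Fos and 2 at Fosl2, against 30.4% of 7382 pairs of region and gene over all genes. In CD4+ cells 8 regions of the 9 genes were under 10% in WT cells and 0 of them rose by more than 5 points, between -4.0 and 0.975. Over all such regions in CD4+ cells 3.95% did. Regions under 10% in WT that gained were therefore not particular to these genes in CD11b+ cells, and were few anywhere in CD4+ cells.

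**Figure D3:**
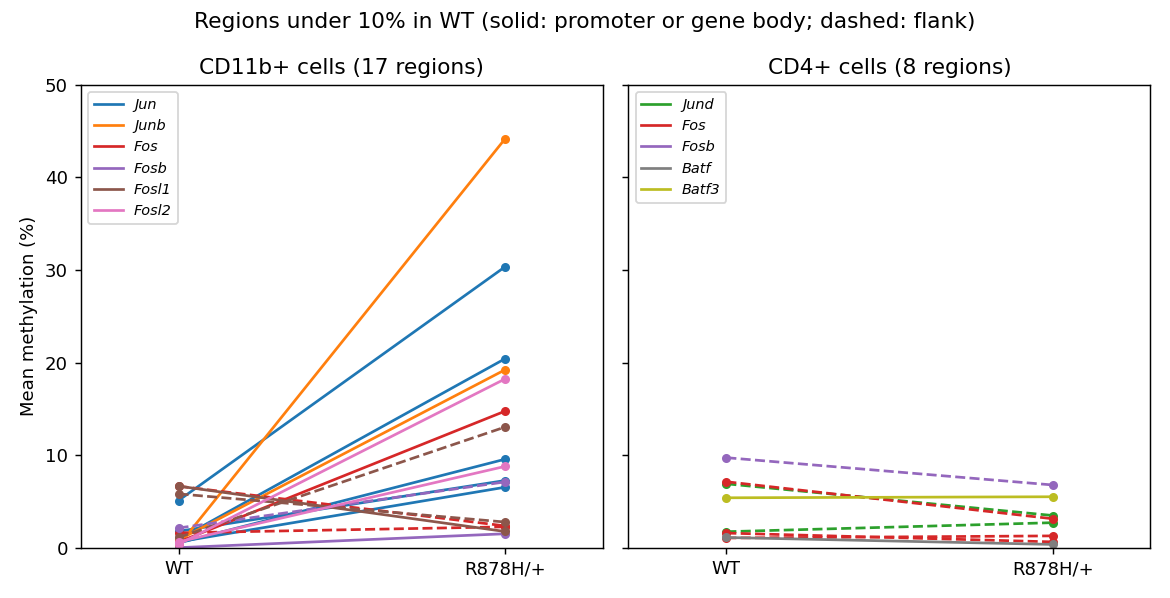
Lines join the WT and R878H/+ means (%) of each region under 10% in WT cells, coloured by gene. In CD11b+ cells (left, 17 regions) the lines of Junb and Jun climb highest, to 44.1% and 30.3%, while in CD4+ cells (right, 8 regions) all mutant means stay under 7%.

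The gains rested on part of the CpGs in each region. The cytosines counted by the authors were 16.7% to 81.2% of those in the sequence of the 11 gaining regions, with a median of 45.5%. The median was 47.8% in the 6 other regions under 10% in WT cells and 62.5% over all 110 regions. In the 14 regions of CD11b+ cells that fell by more than 20 points it was 64.6%, with the lowest share, 38.3%, at the Jund upstream loss. In the 25 such regions of CD4+ cells it was 71.4%, with the lowest share, 28.6%, at the same place. Over all listed regions of CD11b+ cells under 10% in WT, a gain of over 5 points was held by 32.8% of those with under 50% of their cytosines counted and by 18.3% of the others. The part of this in the gains at the AP-1 factor genes was not tested. The means also set a bound on the number of mice. The sums behind the 4 means of the Jun and Junb regions past the threshold came out whole within 0.1 when 4 mice with a whole percentage at each cytosine were assumed. Under that reading 1 mouse can add at most 25% to a mean of 4, so the 44.1% at Junb needed methylation in 2 or more of the mutant mice. The 30.3% at Jun is also above 25%, but WT cells already had 5.09% there. At Jun the bound therefore cannot show that more than 1 mouse had gained.

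Most CpGs of the windows lay outside the listed regions. The 9 windows held 5155 CpGs, of which 23.3% lay in a listed region of CD11b+ cells and 26.2% in one of CD4+ cells. Within 1 kb of the starts there were 1185 CpGs, and 10.7% and 2.9% of them were in listed regions. Jun, Junb, Fos, Fosb and Fosl2 had 0 promoter CpGs in a listed region of CD4+ cells. A comparison of the promoter gains between the cell types could therefore not be made from the tables.

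The regions of the cell types were then set against each other. Of the 110 CD11b+ regions, 81 (73.6%) overlapped a CD4+ region by 1 bp or more, against 58.8% of all listed CD11b+ regions. Of the 137 CD4+ regions, 83 (60.6%) overlapped a CD11b+ region, against 45.5% of all. With an overlap of at least 50% of both regions, 45 were left in each table, 40.9% and 32.9%, against 33.2% and 24.7% of all. The 96 overlapping pairs were lower in both cell types in 91 cases, higher in both in 0 and opposite in 5. The 5 opposite pairs, at Junb, Fos, Fosb and Batf3, had gains of 0.375 to 3.98 points in CD11b+ cells. In 9 pairs the loss was over 20 points in both, at any number of cytosines. These were at Fos and Fosl2 and Junb, 2 pairs each, and at Jund, Fosl1 and Batf3, 1 pair each. Across the pairs the differences correlated with a Pearson's r of 0.642, given as a description because pairs of 1 gene lie side by side and share their libraries. Among WT cells the CD11b+ mean was below the CD4+ mean in 63 of the 96 pairs, and in 31 of the 45 with the larger overlap. The regions of a pair can differ in boundaries, and a region can stand in several pairs. The same was not counted over all overlapping regions, so it is not read as a trait of these genes.

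**Figure D4:**
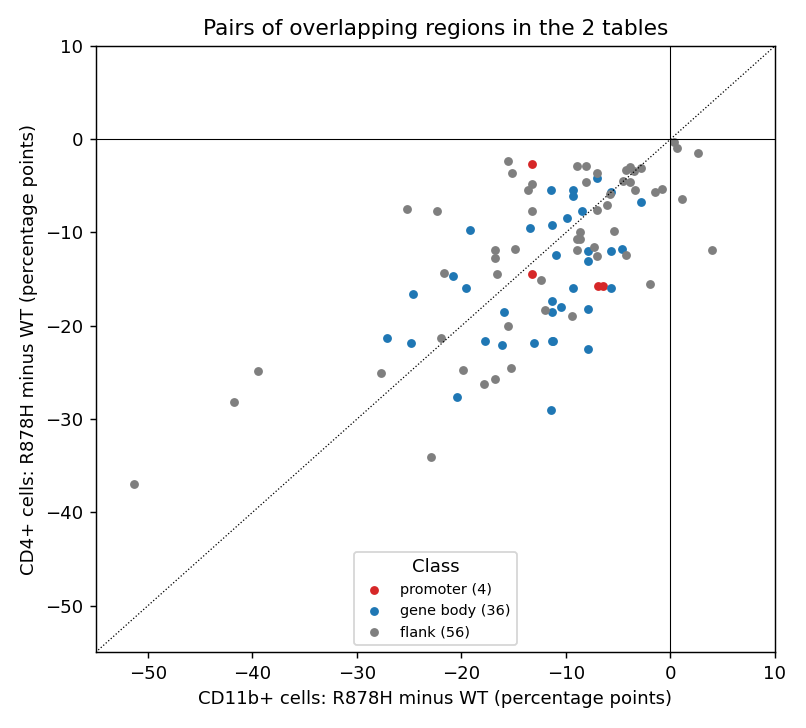
Each point is a pair of overlapping regions, placed by its difference (R878H minus WT, percentage points) in CD11b+ cells (horizontal) and CD4+ cells (vertical), with the dotted line marking equal differences. Of the 96 points, 91 fall in the lower left where both cell types had lost methylation, as most listed regions of each cell type had. The one with the largest loss is the Jund upstream region (-51.4 and -37.0 points).

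The promoters of the 9 genes were also read for known binding sequences. RefSeq gave 300-base promoters for 8 of them on GRCm38.p6, all but Fosl1, out of 32851 in its table. The AP-1 site TGANTCA was in 0 of the 8 and in 7.81% of all promoters. The CRE, TGACGTCA, was in 0 (1.79% of all), and the CArG box, bound by serum response factor, in 0 (1.63%). The variant TGACATCA was in that of Jun alone (3.62% of all). The GC box GGGCGG was in 6 of the 8, those of Jun, Fos, Fosb, Fosl2, Batf and Batf3, against 35.7% of all promoters. These shares were not matched for CpG content. The median over all promoters was 7 CpGs, and the 8 held between 3, at Jund, and 34, at Batf3. Both strands were searched, and a sequence outside these windows would not have been seen. The windows lie at the RefSeq starts, which are 1210 bp from the GENCODE start at Jund and 671 bp at Fosl2. Among the listed regions, TGANTCA was in 0 of the 11 gaining regions of CD11b+ cells and in 18 of all 110, which are longer.

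Other genes around the AP-1 pathway were taken from lists. The largest losses and gains named for each list are those over regions with more than 10 cytosines. For the gene counts below, the shares over all protein-coding genes with a listed region in their window serve as background. For a loss these were 33.7% in CD11b+ cells and 37.8% in CD4+ cells, and for a gain 3.47% and 0.0738%. Among 24 other bZIP genes, which encode factors of the same fold, 11 had a loss past the threshold in CD11b+ cells and 16 in CD4+ cells, and 2 had a gain in CD11b+ cells, Creb1 and Maf. Median differences over their regions were -8.2 and -8.17. The largest loss was at the promoter of Mafk, a small Maf protein, from 60.6% to 8.9% in CD11b+ cells and from 76.1% to 34.9% in CD4+ cells. Over more than 10 cytosines the largest gain in CD11b+ cells was within Maf, from 0.958% to 28.4%, and in CD4+ cells it was within Bach1, from 41.8% to 61.6%. Of their promoter and gene body regions under 10% in WT CD11b+ cells, 16 of 24 had risen by more than 5 points. Over all genes 30.4% of 7382 pairs of region and gene had.

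The 14 genes upstream of AP-1, the MAP kinases and the serum response factor with its partners, had 5 genes with a loss in each cell type and 0 with a gain. Elk3, a partner of serum response factor, had the largest loss, from 70.1% to 21.3% in CD11b+ cells and from 84.9% to 31.5% in CD4+ cells. Over more than 10 cytosines the highest differences were 4.48 points at Map3k1 in CD11b+ cells and 2.98 at Mapk3 in CD4+ cells, while over 10 cytosines the promoter of Map3k1 went from 0.0% to 15.8% in CD11b+ cells. Among 15 other immediate early genes, 7 had a loss in CD11b+ cells and 9 in CD4+ cells, and 3 had a gain in CD11b+ cells, namely Egr2, Klf4 and Myc. At the promoter of Myc, CD11b+ cells went from 0.875% to 38.8%. The largest loss was at Egr1, from 77.02% to 32.2% in CD11b+ cells and from 75.3% to 28.2% in CD4+ cells, and the highest difference in CD4+ cells was 4.98 at Btg2. Of 11 NF-kB genes, 4 had a loss in CD11b+ cells and 8 in CD4+ cells, and Nfkb2 had a gain in CD11b+ cells, from 0.574% to 38.5%. Bcl3 had the largest loss of this list in CD11b+ cells, from 77.8% to 31.6%, and Nfkbiz in CD4+ cells, from 72.5% to 28.5%. The highest difference in CD4+ cells was 2.32 points at Relb. Gains past the threshold in CD11b+ cells were thus seen at genes of 3 of these 4 lists as well as at Jun and Junb. Over all genes with a listed region in their window the share was 3.47%. Of the promoter and gene body regions under 10% in WT CD11b+ cells, 9 of 14 at the other immediate early genes had risen by more than 5 points. At the NF-kB genes 5 of 7 had, and at the genes upstream of AP-1 1 of 4. Nothing is read from the counts of the lists, which were written with earlier results known.

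The labelled cell types were checked on WT cells against marker genes, at which a low level is usual in the cells that use the gene. Over 130 overlapping regions at 12 T cell genes the CD4+ mean was lower in 92, with a median CD4+ minus CD11b+ difference of -10.6 points. Over 87 regions at 12 myeloid genes the CD11b+ mean was lower in 62, with a median of 8.34. At 7 B cell genes the median was 1.52 over 61 regions, with the CD11b+ mean lower in 37. Of 5 NK cell genes 1 had overlapping regions. The share over all overlapping regions was not computed, so the myeloid count alone says little of the identity of the cells. The share of other cell types in the isolated cells cannot be read from these tables, and whether the genotypes differed in the makeup of CD11b+ or CD4+ cells was not tested.

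Of the regions near the threshold with more than 10 cytosines, the ones just past it were the Fosl2 intron in CD11b+ cells (-20.4) and a Batf intron in CD4+ cells (-20.5), and just short of it were the Junb region at the end of the coding part (18.4) and the 3′ untranslated region of Fosb in CD4+ cells (-18.5). Regions of exactly 10 cytosines, which could not pass, made up 58.2% of the CD11b+ table and 55.3% of the CD4+ table.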

How the data were processed

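WGBS tables of CD11b+ and CD4+ spleen cells of 4 WT and 4 Dnmt3aR878H/+ mice per cell type was used. The authors mapped reads to mm10 with BISCUIT and compared the genotypes with metilene, whose versions are not given in the sources used here. The deposited tables hold, per region, the mean methylation of each genotype in percent, the number of CpG cytosines on both strands (other values: positions), and metilene's difference, p-values and q-values. They have 0 columns of per-sample values. The differences given here were computed from the deposited means. The authors' p-values are not printed; their q-values served in 1 alternative. Starts, counted from 0 in the tables, were converted to count from 1, after a check against the sequence. Gene models came from GENCODE M21 and sequence from GRCm38.p6. Each region was classed as promoter (within 1 kb of a start), gene body or flank (within 10 kb), in that order. The members and gene lists were chosen with earlier results of these data known. Named were all 9 genes, their regions past 20 points over more than 10 cytosines and their promoter regions. Regions of 10 cytosines past 20 points were named in part. Of each list the genes with the largest loss and gain were named. Procedures were tested on simulated regions. The analysis used python 3.11.15, pandas 2.3.3, numpy 2.4.6, pysam 0.24.0 and matplotlib 3.10.9. Alternatives were other thresholds, cytosine minimums, windows, promoter widths, weights and overlaps.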

Additional observations from a re-analysis of the deposited data

How the results depend on the processing

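No paired analysis was possible because the tables hold group means and no value for a mouse, and for the same reason no mouse could be left out. Of 71 values under an alternative, 50 stayed within 1.5 times of the value reported and kept their sign, among them all medians over the flanks and over all regions, and all counts of gains in CD4+ cells, which stayed at 0. The 9 regions of CD11b+ cells lower by over 20 points became 23 above 10 points, 3 above 30 points, 14 with no minimum of cytosines, 2 with more than 20 cytosines, 3 with metilene's q-value below 0.05, 4 within 5 kb of the gene and, in a choice made after seeing the data, 4 with more than 10 CpG dinucleotides. The 18 of CD4+ cells became 36, 2, 25, 7 and 3 under the first 5 of these, and 28 within 20 kb. The 2 gains of CD11b+ cells became 6 above 10 points, and 1, that at Junb, above 30 points, with more than 20 cytosines or with the q-value. The median of the 10 promoter regions of CD11b+ cells turned from 0.5 to -6.43 with a promoter of 500 bp and -1.7 with 2 kb, and was 3.85 with more than 10 cytosines and 8.15 weighted by cytosines. With an overlap of at least 50% of both regions, 45 CD11b+ regions were shared in place of 81. No coverage minimum could be applied.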

Other observations

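Further regions with under 10% in WT CD11b+ cells had higher means in Dnmt3aR878H/+ cells at genes of the lists outside the AP-1 factors. They were picked after their values were seen, and those of Zfp36, Klf2, Ier5 and Atf4 rested on 10 cytosines each, below the minimum used above. Zfp36, whose protein degrades cytokine mRNAs, had a gene body region at 2.25% in WT and 48.6% in Dnmt3aR878H/+ cells. Klf2, a transcription factor of quiescent lymphocytes and monocytes, went from 2.1% to 38.7%, Ier5 from 1.3% to 34.4% and Atf4, the effector of the integrated stress response, from 2.2% to 33.9%. A Klf4 promoter region with 29 cytosines went from 0.405% to 32.9%. In CD4+ cells 1 promoter or gene body region of these lists under 10% in WT had a gain over 5 points, within Elk4, from 7.7% to 15.6%. Flank regions of the lists were not counted here.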
